A study of Mus musculus with 16 samples.

Results

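The Hox gene clusters were read as regions of open chromatin in mouse pancreatic cancer cells that had grown in the pancreas, the liver or the lungs. A peak of the normalised-count table (mm10) was counted as a Hox peak where the protein-coding transcription start site nearest to its midpoint, within 100 kb, belonged to 1 of 38 listed Hox genes. By that rule 44 of 136630 nuclear peaks were Hox peaks, and they fell to 23 of the 38 genes. Accessibility had been measured by ATAC-seq, in which a transposase cuts and tags open DNA, in tumour cells sorted by FACS for the red marker mKate2.

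The cells came from the KC-shSmad4 model. They carried Ptf1a-Cre, which is active in the pancreatic lineage, a Cre-activated rtTA3-IRES-mKate2 cassette at Rosa26 and a doxycycline-inducible, GFP-linked hairpin against Smad4 in the Col1a1 locus, on a mixed C57BL/6J and 129 background. Smad4 encodes the shared transcriptional partner of the TGFβ signal. All 6 groups shared these alleles and a firefly luciferase vector, and all hosts were Foxn1nu (nude) females 6 to 8 weeks old, which lack T cells. Cultured tumour-derived cells were placed in the pancreas, were injected into the spleen to seed the liver, or were injected into a tail vein to seed the lungs, so that the liver and lung tumours were experimental metastases and not spontaneous ones. In the groups named Smad4 off (Panc-Smad4OFF, n = 3 mice; Liv-Smad4OFF, n = 2; Lung-Smad4OFF, n = 3) doxycycline was kept on. In the groups named Smad4 on (Panc-Smad4ON, n = 3; Liv-Smad4ON, n = 2; Lung-Smad4ON, n = 3) the drug was withdrawn after 4 to 6 weeks of growth and the cells were taken 14 days later (the column names of the lung libraries say day 15). Which of the tumour-derived lines and hairpins went into each mouse was not given in the sources used here. Growth before withdrawal was set by organ, at 4 weeks (pancreas), 5 weeks (liver) or 6 weeks (lungs). The spleen was removed after the splenic injections. Each organ thus had its own growth time and injection route. The organ comparisons below cannot separate these from the organ itself, and their part was not tested. Each library was its own mouse, and p-values measure the spread between these mice.

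Hox genes encode homeodomain transcription factors and stand in 4 clusters, A to D. Within a cluster the order of the genes follows the order in which they act along the body axis, with the low-numbered (anterior) genes at one end and the high-numbered (posterior) genes at the other. Their proteins bind DNA with cofactors of the PBX and MEIS families. In adult tissues the pattern of active Hox genes tends to be kept as a memory of position, held open by Trithorax proteins or closed by Polycomb proteins, and Hoxa13 and Hoxd13 mark the hindgut and the limb ends.

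HoxA held the most open chromatin. It had 22 peaks over all 10 of its listed genes, against 15 peaks over 7 of 10 genes in HoxB, 3 peaks over 3 of 9 genes in HoxC and 4 peaks over 3 of 9 genes in HoxD. The 15 genes with no peak of their own were Hoxb2, Hoxb3 and Hoxb5, the 6 genes Hoxc6 and Hoxc9 to Hoxc13, and the 6 genes Hoxd1, Hoxd4 and Hoxd10 to Hoxd13. A peak went to the nearest start site only, so an open site between neighbours was counted for 1 gene. By position, 20 Hox peaks lay within 1000 bp of a start site, 10 in introns, 3 in exons and 11 between genes. Hox peaks had a median width of 780 bp and a median GC content of 52.8%, against 589 bp and 45.8% over all peaks. The farthest Hox peak lay 48107 bp from its start site, so none was near the 100 kb limit, and a limit of 10 kb kept 38 peaks of 21 genes.

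For 12 genes a peak overlapped a start site, namely Hoxa3, Hoxa4, Hoxa5, Hoxa6, Hoxa7, Hoxa9, Hoxa10, Hoxa11, Hoxa13, Hoxb6, Hoxd3 and Hoxd8. For the other 11 the nearest assigned peak was 267 bp (Hoxa2), 367 bp (Hoxd9), 443 bp (Hoxb7), 453 bp (Hoxb9), 474 bp (Hoxb4), 766 bp (Hoxc5), 1445 bp (Hoxc4), 2950 bp (Hoxb8), 8101 bp (Hoxc8), 12810 bp (Hoxb13) and 34758 bp (Hoxb1) from the start site. Counting every start site, 14 Hox peaks held one. Their median level was 121 normalised counts per kb of peak, against 431 over all 13174 peaks that hold a protein-coding start site. The highest of the 14, at Hoxa3, had 351 normalised counts per kb in the mean of the 16 mice, and 38% of all start-site peaks lay below it. More than 1000 bp from a start site the median was 97.8 normalised counts per kb for Hox peaks and 92.1 for all peaks. These levels were not tested against each other.

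**Figure D1:**
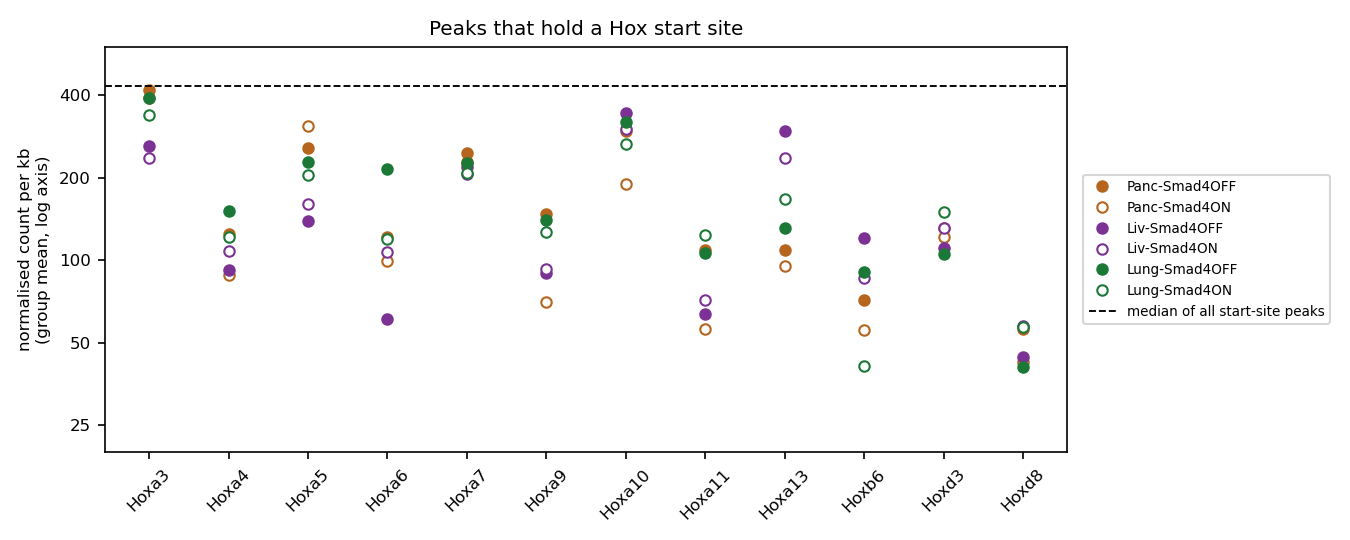
Level of the 12 peaks, 1 for each gene, that overlap a Hox start site, in normalised counts per kb of peak on a log axis, as group means (filled, Smad4 off; open, Smad4 on; brown, pancreas; purple, liver; green, lungs). The dashed line is the median of all peaks that hold a start site, 431 per kb. All group means of these 12 peaks lie below it, and the liver means are lowest at Hoxa3 and Hoxa5 and highest at Hoxa13.

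5 sequences are shown as examples from the named peaks. Each is the 300 bases around the midpoint of a peak, on the plus strand of mm10 (read from RefSeq GRCm38.p6), in lower case with matches to TGATNNAT (a HOX-PBX site) and TTTATG (a CDX site) on either strand in capitals. The peak upstream of Hoxc4 differed between all 3 organs and holds 3 CDX matches, of which 1 runs into its 1 HOX-PBX match. The window at the Hoxa13 start site, higher in the liver, holds neither motif and has 46 CpG dinucleotides. The window 9961 bp upstream of Hoxa13 moved with it and has 1 CDX match. The window 42580 bp downstream of Hoxb1, highest in the pancreas, has 1 CDX match and 5 CpG dinucleotides. The other windows downstream of Hoxb1, which are not shown, hold neither motif. The window 5478 bp upstream of Hoxa4, also not shown, holds neither. The window 2903 bp upstream of Hoxa9, the site called lower after Smad4 restoration, holds neither motif, and the start site of the microRNA gene Mir196b lies in its peak.
Hoxc4, 1445 bp upstream, chr15:103032801-103033100: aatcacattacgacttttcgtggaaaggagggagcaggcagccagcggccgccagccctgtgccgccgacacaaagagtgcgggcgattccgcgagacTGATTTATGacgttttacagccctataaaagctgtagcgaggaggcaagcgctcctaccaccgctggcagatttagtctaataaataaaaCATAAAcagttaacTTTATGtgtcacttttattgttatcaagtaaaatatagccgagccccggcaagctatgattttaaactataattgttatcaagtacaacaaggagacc
Hoxa13 start site, chr6:52260777-52261076: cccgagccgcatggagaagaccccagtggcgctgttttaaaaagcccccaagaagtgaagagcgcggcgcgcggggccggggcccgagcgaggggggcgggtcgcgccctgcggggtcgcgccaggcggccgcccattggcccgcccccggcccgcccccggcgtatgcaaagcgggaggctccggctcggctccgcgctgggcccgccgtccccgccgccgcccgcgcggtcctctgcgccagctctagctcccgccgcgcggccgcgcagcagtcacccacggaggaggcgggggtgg
Hoxa13, 9961 bp upstream, chr6:52270692-52270991: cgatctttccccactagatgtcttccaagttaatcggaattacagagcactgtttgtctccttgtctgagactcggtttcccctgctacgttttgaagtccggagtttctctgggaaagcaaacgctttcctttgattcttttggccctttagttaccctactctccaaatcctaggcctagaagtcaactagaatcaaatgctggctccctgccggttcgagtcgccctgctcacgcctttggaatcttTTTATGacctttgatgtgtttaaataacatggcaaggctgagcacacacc
Hoxb1, 42580 bp downstream, chr11:96408183-96408482: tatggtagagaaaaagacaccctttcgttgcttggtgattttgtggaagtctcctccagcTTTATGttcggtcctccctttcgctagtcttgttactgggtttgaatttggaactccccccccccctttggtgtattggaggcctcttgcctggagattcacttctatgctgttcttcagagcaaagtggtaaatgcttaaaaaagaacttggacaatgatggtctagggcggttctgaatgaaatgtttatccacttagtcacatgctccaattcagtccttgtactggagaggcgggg
Hoxa9, 2903 bp upstream, chr6:52230124-52230423: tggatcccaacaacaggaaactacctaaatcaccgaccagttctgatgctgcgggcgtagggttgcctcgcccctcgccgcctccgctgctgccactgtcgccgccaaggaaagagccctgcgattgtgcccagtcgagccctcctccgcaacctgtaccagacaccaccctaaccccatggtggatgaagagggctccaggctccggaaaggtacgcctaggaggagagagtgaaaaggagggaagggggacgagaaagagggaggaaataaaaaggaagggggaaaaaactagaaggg

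Over the central 300 bases of all 44 Hox peaks, TTTATG was present in 11 (25.0%, against 18.9% of all peaks) and TGATNNAT in 3 (6.82%, against 16.4%). The letters TGANTCA of AP-1 were present in 6 Hox windows (13.6%, against 34.1%), TGTGGT of RUNX in 5 (11.4%, against 27.0%), TGTTTAC of FOX in 1 (2.27%, against 6.16%) and GTTAATNAT of HNF1 in 0 (against 1.41%). CCNCNCCC of KLF was present in 22 (50.0%, against 28.4%), CNAGNNGGC of CTCF in 13 (29.5%, against 14.7%) and CAGAC of SMAD in 15 (34.1%, against 52.7%). Promoter peaks made up 45.5% of Hox peaks and 9.76% of all peaks, and promoter windows of all genes hold KLF letters in 59.2% and AP-1 letters in 7.44%. The median window had 13.5 CpG dinucleotides in Hox peaks and 3 in all peaks, and away from promoters 7 and 3. A match is a description of these letters in these windows, both strands were read, and overlaps were allowed.

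Libraries held 22495044 to 37510981 reads in nuclear peaks, with a median of 36 to 76 reads per peak. All values are normalised counts per peak unless given per kb. The 7 epithelial tumour markers (Krt8, Krt18, Krt19, Epcam, Cdh1, Muc1, Sox9) each had a promoter peak, with a summed count of 17276 to 25875 in the pancreas, 39704 to 53081 in the liver and 23929 to 35581 in the lungs. Of other cell types, the 4 acinar markers had no promoter peak, nor did Alb, Apoa1, Apoa2, Fgb, Fgg and Ahsg of 7 hepatocyte markers, Sftpc, Sftpb, Sftpa1, Scgb1a1 and Nkx2-1 of 6 lung epithelial markers, or any of 6 leukocyte markers other than Cd68. The hepatocyte sum (Ttr alone) was 20.4 to 96.5 in the pancreas, 164 to 242 in the liver and 52.5 to 96.7 in the lungs, the lung epithelial sum (Ager alone) 15.4 to 59.9, 14.2 to 22.2 and 20.1 to 47.4, and the leukocyte sum (Cd68 alone) 178 to 269, 454 to 776 and 256 to 401. The endothelial sum (Cdh5, Kdr and Tek, 3 of 5 markers) was 125 to 167, 55.9 to 76.9 and 96.8 to 745. The 6 fibroblast markers (Col1a2, Pdgfra, Pdgfrb, Dcn, Lum, Col3a1) all had promoter peaks and moved with the organ, at 1725 to 3491 in the pancreas, 663 to 1013 in the liver and 749 to 1650 in the lungs. Their part in the organ differences below was not tested. In such bulk samples, fewer cells with an open site and less opening per cell cannot be told apart.

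The first question was whether Hox chromatin differed between tumours in the 3 organs with Smad4 off. A peak was called where its log2 fold change was at least 0.58 in size and its adjusted p (limma, Benjamini-Hochberg over all 136630 peaks) at most 0.1. Between liver and lungs 6 Hox peaks were called higher and 9 lower in the liver, that is 13.6% and 20.5% of the 44, against 22.9% and 26.8% of all peaks. Between liver and pancreas 9 were higher and 11 lower in the liver (20.5% and 25.0%, against 26.2% and 32.3%). Between lungs and pancreas 3 were higher and 3 lower in the lungs (6.82% and 6.82%, against 6.59% and 10.7%). Of these 6 Hox shares, 5 lay below the share of all peaks and the other stood at 6.82% against 6.59%. These gaps were not tested. Promoter peaks made up 45.5% of Hox peaks and 9.76% of all peaks. Of the promoter peaks of all genes, 26.6%, 31.3% and 6.09% were called in either direction in the 3 comparisons. The median log2 fold change of the 44 was −0.12, −0.11 and 0.10 in the 3 comparisons, against 0.00, −0.05 and 0.03 over all peaks. With a correction for GC content the liver and lung split became 4 higher and 15 lower. Without the second Liv-Smad4OFF mouse 7 peaks remained called between liver and lungs, and the lung and pancreas count fell to 2 without the third Panc-Smad4OFF mouse and to 3 without the second Lung-Smad4OFF mouse.

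Along HoxA the direction changed with position. Liver minus lung values were negative at 9 of 9 peaks from Hoxa2 to Hoxa7 and 7 of 8 from Hoxa9 to Hoxa11. At Hoxa13, 5 of 5 were positive, and over all peaks 49.9% were negative. The medians of these stretches were −0.68, −0.54 and 0.96 on the log2 scale. Against the pancreas they were −0.80, −0.79 and 1.45. The signs of these 6 medians were the same after TMM scaling, quantile normalisation and GC correction. From Hoxa9 to Hoxa11 the 2 Liv-Smad4OFF mice were far apart, with a summed level per kb of 155 and 90.3. Panc-Smad4OFF had 135, 185 and 156 and Lung-Smad4OFF 209, 132 and 119, so the first liver mouse lay inside both ranges. With Smad4 on, this stretch had 123 and 103 in the liver, above the 78.8, 77.9 and 91.3 of the pancreas. The first Lung-Smad4OFF mouse was the highest of its group at 9 of 9 peaks from Hoxa2 to Hoxa7 and 8 of 8 from Hoxa9 to Hoxa11. The stretches were drawn after the values were seen, neighbouring peaks share a locus, and no test was made of the order.

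**Figure D2:**
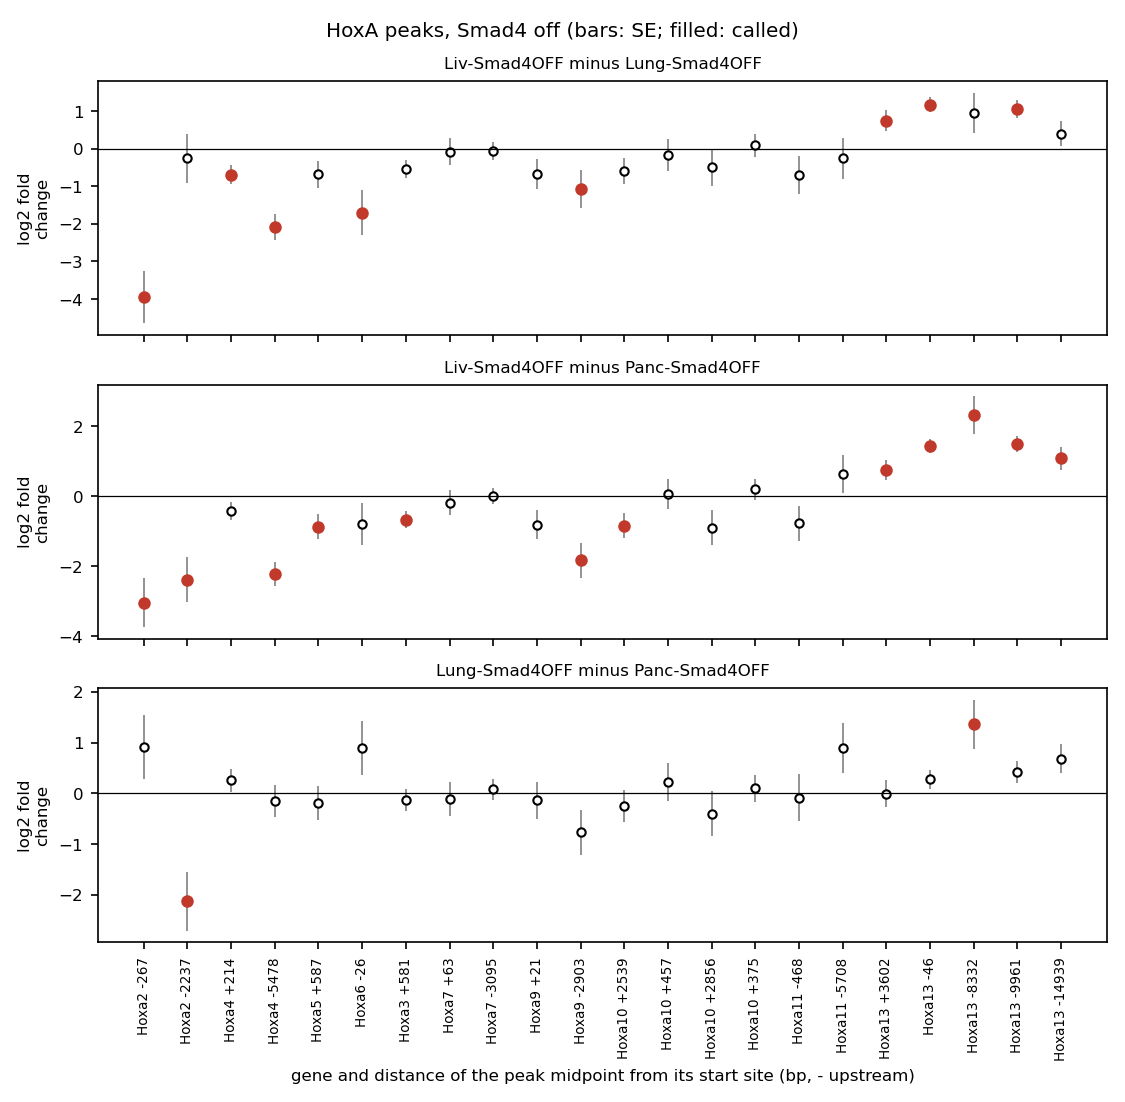
Log2 fold change (limma, log2 of normalised count + 1, bars SE) of the 22 HoxA peaks, left to right from Hoxa2 to Hoxa13, for the 3 organ comparisons with Smad4 off. Filled points were called. In both comparisons with the liver, called peaks lie below 0 on the left and above 0 at Hoxa13 on the right.

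Among the anterior HoxA genes, which pattern the hindbrain and neck in the embryo, the peak 5478 bp upstream of Hoxa4 (chr6:52196557-52197905, intronic) was lower in the liver. Its normalised counts were 330, 361 and 318 in the Panc-Smad4OFF mice, 365, 233 and 323 in the Lung-Smad4OFF mice and 66.6 and 75.2 in the Liv-Smad4OFF mice. Both liver values lay below all 6 others. The liver minus lung log2 fold change was −2.08 ± 0.35 (SE, adjusted p = 0.000298) and the liver minus pancreas value −2.23 ± 0.35 (adjusted p = 0.000104), called in 11 of 11 alternatives and with every mouse left out in turn. With Smad4 on, the pancreas had 406, 465 and 382 and the lungs 277, 433 and 302. The 2 Liv-Smad4ON mice did not match each other, with 294 and 89.4. The first of them lay inside the lung range, and the liver minus lung value of −1.03 ± 0.35 (adjusted p = 0.0338) became −0.17 (adjusted p = 0.749) without the second, and −0.83 (adjusted p = 0.117) without the second Lung-Smad4ON mouse.

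The Hoxa2 gene, which patterns the second pharyngeal arch, had a small peak 267 bp upstream of its start site (chr6:52164889-52165307). It read 15.4, 17.0 and 22.2 in Panc-Smad4OFF, 125, 10.9 and 29.3 in Lung-Smad4OFF and 1.23 and 1.39 in Liv-Smad4OFF. The liver values stood for 1 read in each mouse. The liver to lung ratio was 0.0230 and the liver to pancreas ratio 0.0723, with exact 95% counting intervals of 0.00277 to 0.0844 and 0.00856 to 0.273 that cover counting error only. The fitted differences were −3.95 ± 0.70 (adjusted p = 0.000436) and −3.04 ± 0.70 (adjusted p = 0.00177) and ranged from −5.40 to −2.09 and from −3.79 to −1.31 over the alternatives. The first Lung-Smad4OFF mouse stood alone at 125. The same mouse had the highest endothelial marker sum (745, against 173 and 133 in the other Lung-Smad4OFF mice), whose part in the value was not tested.

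A second Hoxa2 peak, 2237 bp upstream, was open in the pancreas and lower in both other organs. It read 37.6, 33.1 and 58.3 in Panc-Smad4OFF, 7.41 and 6.97 in Liv-Smad4OFF and 16.6, 6.52 and 6.03 in Lung-Smad4OFF. The pancreas values lay above all others. The liver minus pancreas difference was −2.38 ± 0.64 (adjusted p = 0.00505) and the lung minus pancreas difference −2.13 ± 0.58 (adjusted p = 0.0241), the latter no longer called without the third Panc-Smad4OFF mouse (−1.89, adjusted p = 0.116).

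The middle HoxA genes were read at their start-site peaks. At Hoxa3 the peak lay on the gene's only protein-coding start site in the annotation used, between Hoxa6 and Hoxa7 (chr6:52211270-52213799). This peak overlaps a start site of the gene model Gm28308 too. It had the highest mean count of the 44, with 984, 1179 and 1002 in Panc-Smad4OFF, 1316, 836 and 805 in Lung-Smad4OFF and 720 and 607 in Liv-Smad4OFF. Both liver mice were below the other 6. The liver minus pancreas difference of −0.67 ± 0.24 (adjusted p = 0.0252) was called, but not without the second Liv-Smad4OFF mouse (−0.55, adjusted p = 0.165), and the liver minus lung difference of −0.54 did not reach the fold threshold. Hoxa5, which acts in lung and gut development, read 424, 446 and 279 in Panc-Smad4OFF, 453, 253 and 311 in Lung-Smad4OFF and 221 and 191 in Liv-Smad4OFF. It was lower in the liver than in the pancreas by −0.87 ± 0.37 (adjusted p = 0.053), a call kept in 1 of 5 fits with a mouse left out, the fit without the third Panc-Smad4OFF mouse. The start-site peaks of Hoxa4 (−0.68 ± 0.26, adjusted p = 0.0385) and Hoxa6 (−1.70 ± 0.60, adjusted p = 0.0281) were called lower in the liver than in the lungs, and both calls were lost without the second Liv-Smad4OFF mouse (adjusted p = 0.155 for each) or without the first Lung-Smad4OFF mouse (adjusted p = 0.136 and 0.102). For Hoxa4 the call was also lost without the first Liv-Smad4OFF mouse (adjusted p = 0.110). Neither Hoxa7 peak was called in any organ comparison.

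From Hoxa9 to Hoxa11 the calls were few. The peak 2903 bp upstream of Hoxa9 read 54.3 and 50.2 in Liv-Smad4OFF, 121, 254 and 216 in Panc-Smad4OFF and 181, 113 and 64.6 in Lung-Smad4OFF. It was lower in the liver than in the pancreas by −1.83 ± 0.50 (adjusted p = 0.00559) with every mouse left out in turn, and lower than in the lungs by −1.06 ± 0.50 (adjusted p = 0.0906), a call kept in 1 of 5 such fits. The exonic peak of Hoxa10, 2539 bp downstream, was also called lower in the liver than in the pancreas (−0.84, adjusted p = 0.0511), but not without the second or the third Panc-Smad4OFF mouse (adjusted p = 0.141 and 0.110) or the second Liv-Smad4OFF mouse (adjusted p = 0.517).

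At the posterior end the direction turned. Hoxa13 is the last gene of the cluster, and its start-site peak (chr6:52259035-52262817), which also holds the start of the antisense transcript Hottip, read 1166 and 1067 in Liv-Smad4OFF, 450, 588 and 456 in Lung-Smad4OFF and 506, 339 and 397 in Panc-Smad4OFF. The liver mice lay above all others by a wide gap. The liver exceeded the lungs by 1.17 ± 0.20 (log2, adjusted p = 0.000382) and the pancreas by 1.45 ± 0.20 (adjusted p = 5.09e-05), called in 11 of 11 alternatives and with every mouse left out. With Smad4 on the liver mice had 751 and 1039, the lung mice 536, 687 and 679 and the pancreas mice 352, 296 and 430. The liver minus lung difference of 0.49 was then below the fold threshold, the liver minus pancreas difference was 1.31 ± 0.20 (adjusted p = 0.000103) and the lungs exceeded the pancreas by 0.83 ± 0.18 (adjusted p = 0.00459). No mouse of 1 organ overlapped those of another.

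The intergenic peak 9961 bp upstream of Hoxa13 (chr6:52270355-52271327) followed the start site. It read 481 and 437 in Liv-Smad4OFF, 168, 258 and 240 in Lung-Smad4OFF and 161, 147 and 180 in Panc-Smad4OFF. The liver exceeded the lungs by 1.07 ± 0.24 (adjusted p = 0.00197) and the pancreas by 1.50 ± 0.24 (adjusted p = 0.000117). With Smad4 on it read 318 and 460, 182, 213 and 274, and 104, 89.1 and 106 in liver, lungs and pancreas, with no overlap between organs, and all 3 organ differences were called (0.80, 1.93 and 1.14 for liver minus lung, liver minus pancreas and lung minus pancreas). The first of these had an adjusted p of 0.0183, and 0.280 without the second Liv-Smad4ON mouse.

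The other 3 Hoxa13 peaks were called higher in the liver than in the pancreas in both Smad4 states. The smallest, 8332 bp upstream, rose from 12, 3.57 and 8.33 in Panc-Smad4OFF to 29.6 and 54.3 in Liv-Smad4OFF (2.33 ± 0.54, adjusted p = 0.00177). At 13.8, 27.2 and 21.5 the Lung-Smad4OFF mice lay between them. Its lung minus pancreas call (1.36 ± 0.48, adjusted p = 0.0741) was lost without the second or the third Panc-Smad4OFF mouse (adjusted p = 0.289 and 0.147) and without the second or the third Lung-Smad4OFF mouse (adjusted p = 0.201 and 0.147). The peak 14939 bp upstream differed between liver and pancreas by 1.09 ± 0.32 (adjusted p = 0.00915), and an exonic peak 3602 bp downstream by 0.75 ± 0.29 (adjusted p = 0.0351). The last call was lost without the first Panc-Smad4OFF mouse (adjusted p = 0.137) and without the first Liv-Smad4OFF mouse (adjusted p = 0.202).

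**Figure D3:**
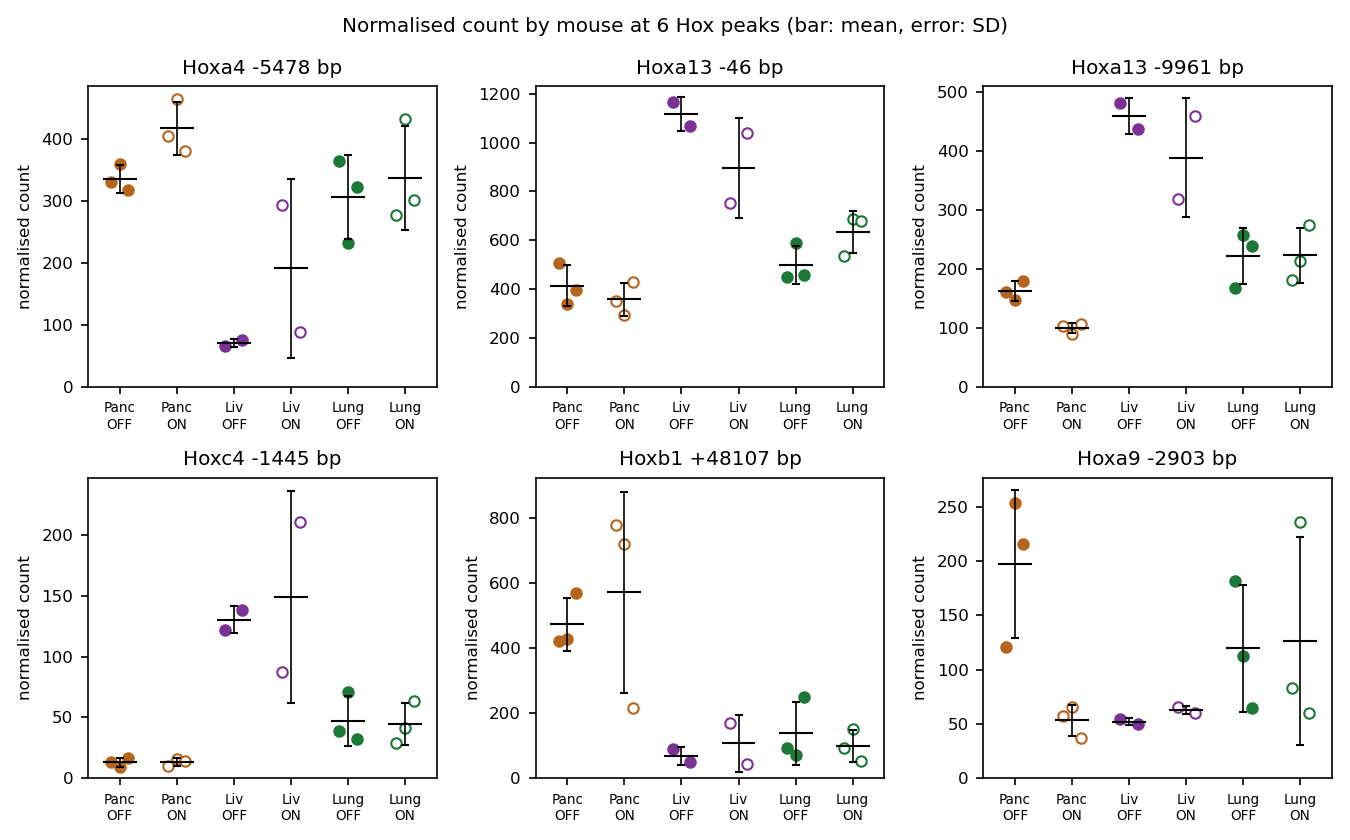
Normalised count of each mouse (points), group mean (bar) and SD at 6 Hox peaks, named by gene and distance of the peak midpoint from the start site (minus, upstream). Filled points are Smad4 off and open points Smad4 on, in 3 pancreas (brown), 2 liver (purple) and 3 lung (green) mice per group. Both Liv-Smad4OFF mice lie outside the range of the pancreas and lung mice at Hoxa4, at both Hoxa13 peaks and at Hoxc4, and the third Panc-Smad4ON mouse falls to 217 at Hoxb1.

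In HoxB the largest differences lay outside the row of genes. The 4 peaks 34758 to 48107 bp downstream of Hoxb1, an anterior gene of the hindbrain, were open in the pancreas. The farthest (chr11:96413315-96414404) read 424, 428 and 569 in Panc-Smad4OFF, 88.9 and 50.2 in Liv-Smad4OFF and 93.9, 70.6 and 250 in Lung-Smad4OFF, and no liver or lung mouse reached the pancreas range. It was lower in the liver by −2.79 ± 0.63 (adjusted p = 0.00152) and in the lungs by −1.98 ± 0.56 (adjusted p = 0.0311) than in the pancreas. The lung call was lost without the third Panc-Smad4OFF mouse (adjusted p = 0.119) or the second Lung-Smad4OFF mouse (adjusted p = 0.117). The peak at 42580 bp (chr11:96407657-96409007) read 201, 154 and 209, then 25.9 and 18.1, then 24.9, 35.9 and 104 in the same order of groups. Its differences from the pancreas were −3.04 ± 0.70 (adjusted p = 0.00172) in the liver and −2.01 ± 0.63 (adjusted p = 0.0457) in the lungs, the latter lost without the third Panc-Smad4OFF, the first Lung-Smad4OFF or the second Lung-Smad4OFF mouse (adjusted p = 0.142, 0.127 and 0.122).

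All 4 of these peaks were called lower in the liver than in the pancreas in both Smad4 states. With Smad4 on, only 1 of the 4 stayed called without the second Liv-Smad4ON mouse (adjusted p = 0.110, 0.362 and 0.381 at the others), and the peak with the last of these p-values was not called either without the first or the second Panc-Smad4ON mouse (adjusted p = 0.130 and 0.168). Summed over them, the level per kb was 185, 175 and 233 in Panc-Smad4OFF, 370, 351 and 104 in Panc-Smad4ON, 34.3 and 21.8 in Liv-Smad4OFF, 83.3 and 26.0 in Liv-Smad4ON, 42.2, 42.5 and 139 in Lung-Smad4OFF and 57.0, 70.4 and 23.2 in Lung-Smad4ON. 1 mouse stood apart in 3 of the groups: the third Panc-Smad4ON mouse was the lowest of its group at 4 of 4 peaks, the third Lung-Smad4OFF mouse the highest at 4 of 4 and the third Lung-Smad4ON mouse the lowest at 4 of 4. The fibroblast marker sum was 3491, 2532 and 1725 in the Panc-Smad4ON mice in order and 1650, 881 and 1230 in the Lung-Smad4OFF mice, and its part in these values was not tested.

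Within HoxB itself, from Hoxb4 to Hoxb13, calls were few. The peak 453 bp downstream of the Hoxb9 start site, at a posterior gene of the trunk, read 59.2 and 68.3 in Liv-Smad4OFF, 26.5, 23.2 and 17.6 in Panc-Smad4OFF and 18.4, 35.9 and 43.9 in Lung-Smad4OFF. The liver exceeded the pancreas by 1.48 ± 0.39 (adjusted p = 0.00438), called in 11 of 11 alternatives, and its higher level than in the lungs (1.02 ± 0.39, adjusted p = 0.0405) was lost without the first or the second Liv-Smad4OFF mouse or the first Lung-Smad4OFF mouse (adjusted p = 0.103, 0.176 and 0.168). A site 12810 bp upstream of Hoxb13 had few reads, 1.71, 3.57 and 8.33 in Panc-Smad4OFF, 21.0 and 22.3 in Liv-Smad4OFF and 12, 18.5 and 9.48 in Lung-Smad4OFF. It was higher in the liver than in the pancreas by 2.22 ± 0.57 (adjusted p = 0.00349), and its lung minus pancreas difference (1.51 ± 0.51, adjusted p = 0.0619) was lost without the first or the second Panc-Smad4OFF mouse or the second Lung-Smad4OFF mouse (adjusted p = 0.215, 0.152 and 0.186). None of the 4 Hoxb6 peaks, the 2 Hoxb4 peaks and the Hoxb8 peak was called between organs in either state, nor was the peak 443 bp downstream of the Hoxb7 start site. The other Hoxb7 peak, 1702 bp upstream, was lower in Liv-Smad4OFF than in Lung-Smad4OFF (−0.74, adjusted p = 0.0687), a call lost without the first or second Liv-Smad4OFF mouse or the third Lung-Smad4OFF mouse (adjusted p = 0.147, 0.239 and 0.277).

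HoxC had 3 peaks, of which 2 were highest in the liver. Hoxc4, the most anterior gene of this cluster, had 1 peak 1445 bp upstream of its nearer start site (chr15:103032653-103033247, intronic), and it was the only 1 of the 44 called in all 6 organ comparisons. It read 122 and 138 in Liv-Smad4OFF, 38.7, 70.6 and 31.9 in Lung-Smad4OFF and 13.7, 8.93 and 16.7 in Panc-Smad4OFF, and no 2 organs overlapped. The liver exceeded the lungs by 1.53 ± 0.45 (adjusted p = 0.0115) and the pancreas by 3.25 ± 0.45 (adjusted p = 4.56e-05), and the lungs exceeded the pancreas by 1.73 ± 0.40 (adjusted p = 0.0112). These 3 calls stood in 11 of 11 alternatives and with every mouse left out. With Smad4 on it read 87.4 and 210, 29.2, 41.2 and 63.5, and 9.78, 16.1 and 14.6 in liver, lungs and pancreas. The differences were 1.65 ± 0.45 (adjusted p = 0.0118, and 0.255 without the second Liv-Smad4ON mouse), 3.27 ± 0.45 (adjusted p = 4.2e-05) and 1.61 ± 0.40 (adjusted p = 0.00922).

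The Hoxc5 peak, 766 bp downstream of its start site, read 45.7 and 65.5 in Liv-Smad4OFF and 17.1, 16.1 and 14.8 in Panc-Smad4OFF (1.71 ± 0.40, adjusted p = 0.00179). The Lung-Smad4OFF mice had 16.6, 35.9 and 36.2, the first of them inside the pancreas range. The liver minus lung difference of 0.95 ± 0.40 (adjusted p = 0.058) was called. That call was lost without the second Liv-Smad4OFF mouse (log2 fold change 0.69) or the first Lung-Smad4OFF mouse (adjusted p = 0.229). The Hoxc8 peak ran the other way, with 75.3 and 71.1 in Liv-Smad4OFF against 175, 101 and 95.6 in Lung-Smad4OFF (−0.70 ± 0.33, adjusted p = 0.0877), a call lost without the first or the second Liv-Smad4OFF mouse or the first Lung-Smad4OFF mouse (adjusted p = 0.194, 0.248 and 0.311).

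HoxD, whose posterior genes act in limb and hindgut, was called at no peak between organs with Smad4 off. Its 4 peaks read 2.47 to 85.4 normalised counts in those 8 mice. The CpG-rich start-site peak of Hoxd8 (GC content 76.1%) had 85.4, 64.3 and 48.2 in Panc-Smad4OFF, 42.0 and 62.7 in Liv-Smad4OFF and 67.2, 48.9 and 27.6 in Lung-Smad4OFF, and all 3 organs overlapped. That of Hoxd3 had 67.5, 59.0 and 67.6, 48.1 and 61.3, and 35.9, 57.6 and 62.9.

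**Figure D4:**
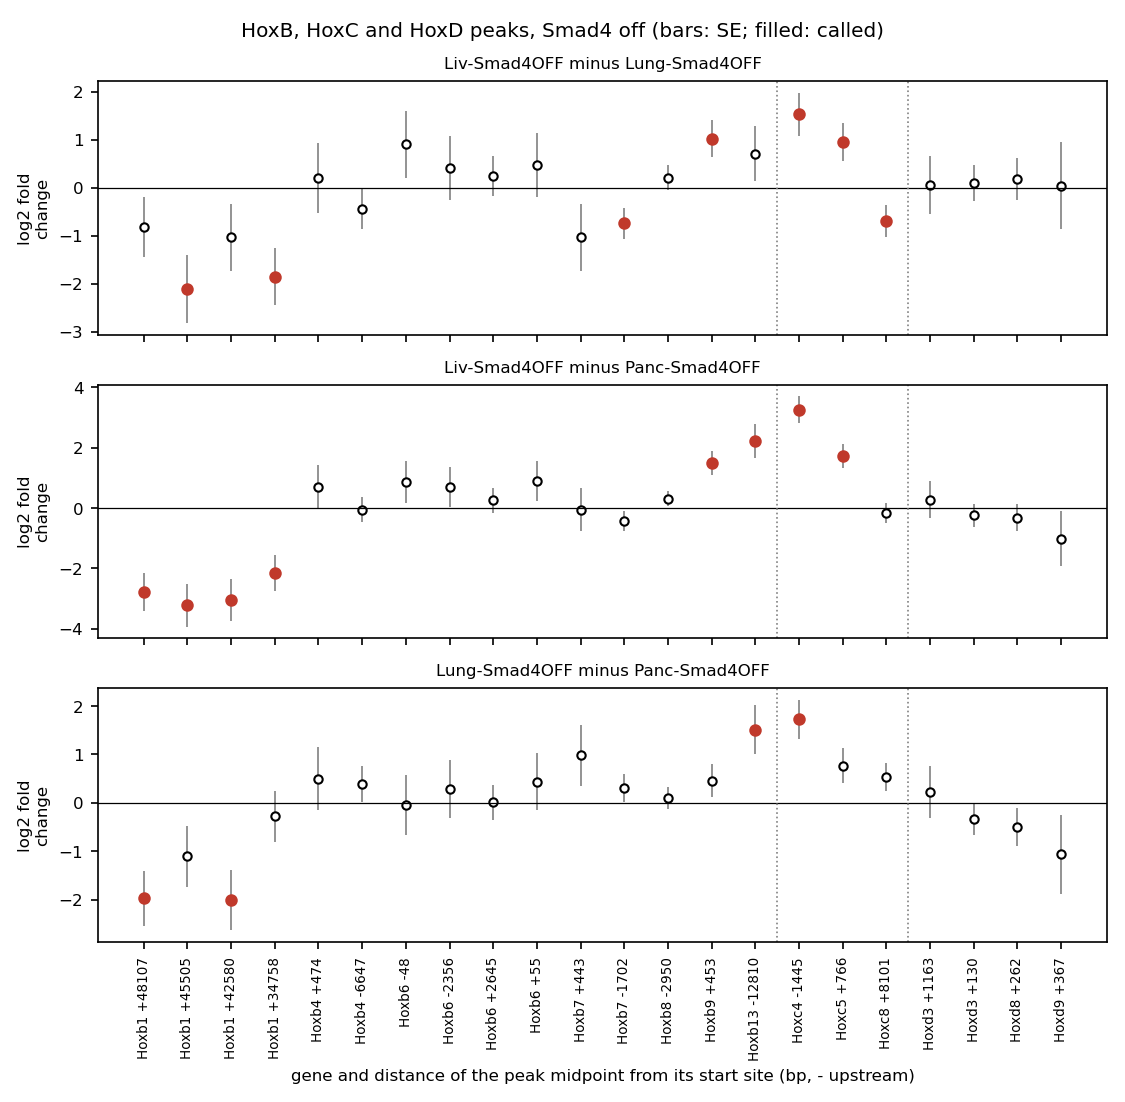
Log2 fold change (bars SE) of the 22 HoxB, HoxC and HoxD peaks, each cluster read from its low-numbered to its high-numbered genes and parted by dotted lines, for the organ comparisons with Smad4 off. Filled points were called. In the liver minus pancreas panel the 4 peaks downstream of Hoxb1 lie lowest and Hoxc4 highest, and no HoxD peak is filled.

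The same organ comparisons were then made among the mice with Smad4 restored. Between liver and lungs 7 Hox peaks were higher and 2 lower in the liver (15.9% and 4.55%, against 17.6% and 18.2% of all peaks). Between liver and pancreas 11 were higher and 11 lower (25.0% and 25.0%, against 27.1% and 32.2%), and between lungs and pancreas 4 were higher and 5 lower in the lungs (9.09% and 11.4%, against 12.8% and 14.9%). The liver and lung split moved to 5 and 2 with TMM factors, 4 and 3 after quantile normalisation and 5 and 4 after GC correction, and that of lungs and pancreas to 8 and 5 after quantile normalisation. Without the second Liv-Smad4ON mouse 0 of the 44 were called between liver and lungs and 9 between liver and pancreas, and without the first Lung-Smad4ON mouse 15 were called between lungs and pancreas.

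Of the 9 peaks higher in the liver than in the pancreas with Smad4 off, 9 were also called with Smad4 on (of 11 called there), namely the 5 of Hoxa13 and those of Hoxb9, Hoxb13, Hoxc4 and Hoxc5. Of the 11 lower ones, 9 were also called (of 11), namely both Hoxa2 peaks, the upstream Hoxa4 peak, those of Hoxa5 and Hoxa3 and the 4 downstream of Hoxb1. Without the second Liv-Smad4ON mouse 7 of these 9 lower peaks lost their call with Smad4 on (adjusted p from 0.110 to 0.447), and 1 of the 2 Hoxa2 peaks and 1 of the 4 by Hoxb1 kept it. Of the 9 higher peaks, 2 lost theirs, 1 of the 5 of Hoxa13 and that of Hoxc5 (adjusted p = 0.136 and 0.236). The Hoxb9 call with Smad4 on was lost without the first or the second Panc-Smad4ON mouse (adjusted p = 0.118 and 0.148). It was also lost without the first Liv-Smad4ON mouse (log2 fold change 0.61). That of the Hoxa2 peak 267 bp upstream was lost without the first or the second Panc-Smad4ON mouse (adjusted p = 0.123 and 0.126). The off and on mice are different animals, and the share of all peaks called in both states was not counted. Between liver and lungs 4 of 6 higher and 2 of 9 lower peaks were called in both states, and between lungs and pancreas 1 of 3 higher and 3 of 3 lower. An intronic peak of Hoxd3, 1163 bp downstream of a start site, was called only among Smad4-on mice, with 19.6, 24.8 and 7.66 in the pancreas, 37.3 and 51.8 in the liver and 33.7, 43.1 and 110 in the lungs. It was higher by 1.44 ± 0.60 in the liver (adjusted p = 0.0507, and 0.185 without the third Panc-Smad4ON or 0.241 without the second Liv-Smad4ON mouse) and by 1.74 ± 0.54 in the lungs (adjusted p = 0.0276, and 0.101 without the third Panc-Smad4ON or 0.154 without the third Lung-Smad4ON mouse) than in the pancreas. The difference between the Smad4 states was not called for it.

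The second question was what 14 days of Smad4 restoration did within each organ. In the pancreas 0 Hox peaks were called higher and 1 lower, 2.27% of the 44, against 0.364% and 3.06% of all peaks. The lower one was the peak 2903 bp upstream of Hoxa9 (chr6:52229566-52230980). It read 121, 254 and 216 in Panc-Smad4OFF and 56.9, 65.6 and 37.6 in Panc-Smad4ON, with no overlap, and fell by 1.83 on the log2 scale (SE 0.45, adjusted p = 0.0496). It was called in 11 of 11 alternatives with all mice, but not without the second or the third Panc-Smad4OFF mouse (adjusted p = 0.226 and 0.149) or the first or the third Panc-Smad4ON mouse (adjusted p = 0.118 and 0.112).

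Its neighbours from Hoxa9 to Hoxa11, posterior genes of the trunk and limb, had values of the same sign without passing the test. The Hoxa9 start-site peak read 285, 313 and 271 with Smad4 off and 124, 137 and 156 with Smad4 on, which did not overlap (−1.06 ± 0.37, adjusted p = 0.157, called in 3 of 11 alternatives). The exonic peak of Hoxa10, 2539 bp downstream, read 152, 233 and 207 against 102, 89.1 and 90.4 (−1.04 ± 0.32, adjusted p = 0.105, called in 6 of 11). The 2 Hoxa10 start-site peaks had −0.78 and −0.65, the intronic Hoxa10 peak −1.10 and the Hoxa11 start-site peak −0.92, with adjusted p from 0.228 to 0.318. Over the 8 peaks from Hoxa9 to Hoxa11 the median was −0.98 and 7 of 8 were negative, against a median of −0.09 (0.08 after GC correction) over the 9 peaks from Hoxa2 to Hoxa7 and of 0.04 over all peaks. The summed level per kb of the 8 peaks was 135, 185 and 156 in Panc-Smad4OFF and 78.8, 77.9 and 91.3 in Panc-Smad4ON. Outside this stretch the peak 9961 bp upstream of Hoxa13 had −0.70 ± 0.21 (adjusted p = 0.107, called in 5 of 11), and the Hoxd9 peak −1.26 ± 0.81 (adjusted p = 0.454). Samples of the 2 states did not overlap at 14 of 44 Hox peaks, against 25.5% of all peaks.

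In the liver 0 Hox peaks were called (against 0.462% higher and 0.0886% lower over all peaks) and in the lungs 0 (against 0.00146% and 0.0022%). At an unadjusted p under 0.05 there were 3 of the 44 in the liver and 1 in the lungs by limma, against 12.1% and 7.11% of all peaks. Neither organ had a Hox call by edgeR, which called 0.261% of all peaks in the liver and 0.00293% for the lungs. DESeq2 called 1 in the liver and 0 in the lungs, against 4.52% of the 70397 and 0.905% of the 110117 peaks to which it gave an adjusted p. The 1 was the upstream Hoxa4 peak (1.43, adjusted p = 0.0294), where the Liv-Smad4ON mice had 294 and 89.4. It was also called by limma without the second Liv-Smad4ON mouse (2.04, adjusted p = 0.0198). In the lungs 36 of 44 values were negative with a median of −0.24, against 50.4% negative and a median of −0.00 over all peaks. Lung-Smad4ON mice overlapped Lung-Smad4OFF mice at all 44 Hox peaks, while 10.7% of all peaks did not overlap.

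Averaged over the organs, 0 Hox peaks were called by limma, against 6.62% of all peaks, with 5 of 44 at an unadjusted p under 0.05 (22.5% over all peaks). edgeR and DESeq2 each called 1 of the 44, again the upstream Hoxa4 peak (0.62 and 0.63, adjusted p = 0.0764 and 0.026), against 6.45% of all peaks by edgeR and 8.68% of 123352 by DESeq2. limma called it without the second Liv-Smad4ON mouse (0.83, adjusted p = 0.00731) or the first Lung-Smad4OFF mouse (0.59, adjusted p = 0.0627). Without the second Lung-Smad4ON mouse limma called 2 peaks instead, the upstream Hoxa9 peak (−0.74, adjusted p = 0.095) and the peak 457 bp downstream of a Hoxa10 start site (−0.69, adjusted p = 0.0564). Tests of whether restoration differed between organs called 0 Hox peaks for liver against lungs, liver against pancreas and lungs against pancreas, by limma, edgeR and DESeq2. Over all peaks limma and edgeR called 0% in each, and DESeq2 called 0.0613%, 0.0319% and 2.54%. At an unadjusted p under 0.05 by limma there were 4, 1 and 4 of the 44, against 5.25%, 3.95% and 10.96% of all peaks. The fall at Hoxa9 in the pancreas was therefore not shown to differ from the values there of 0.26 in the liver and −0.06 in the lungs.

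**Figure D5:**
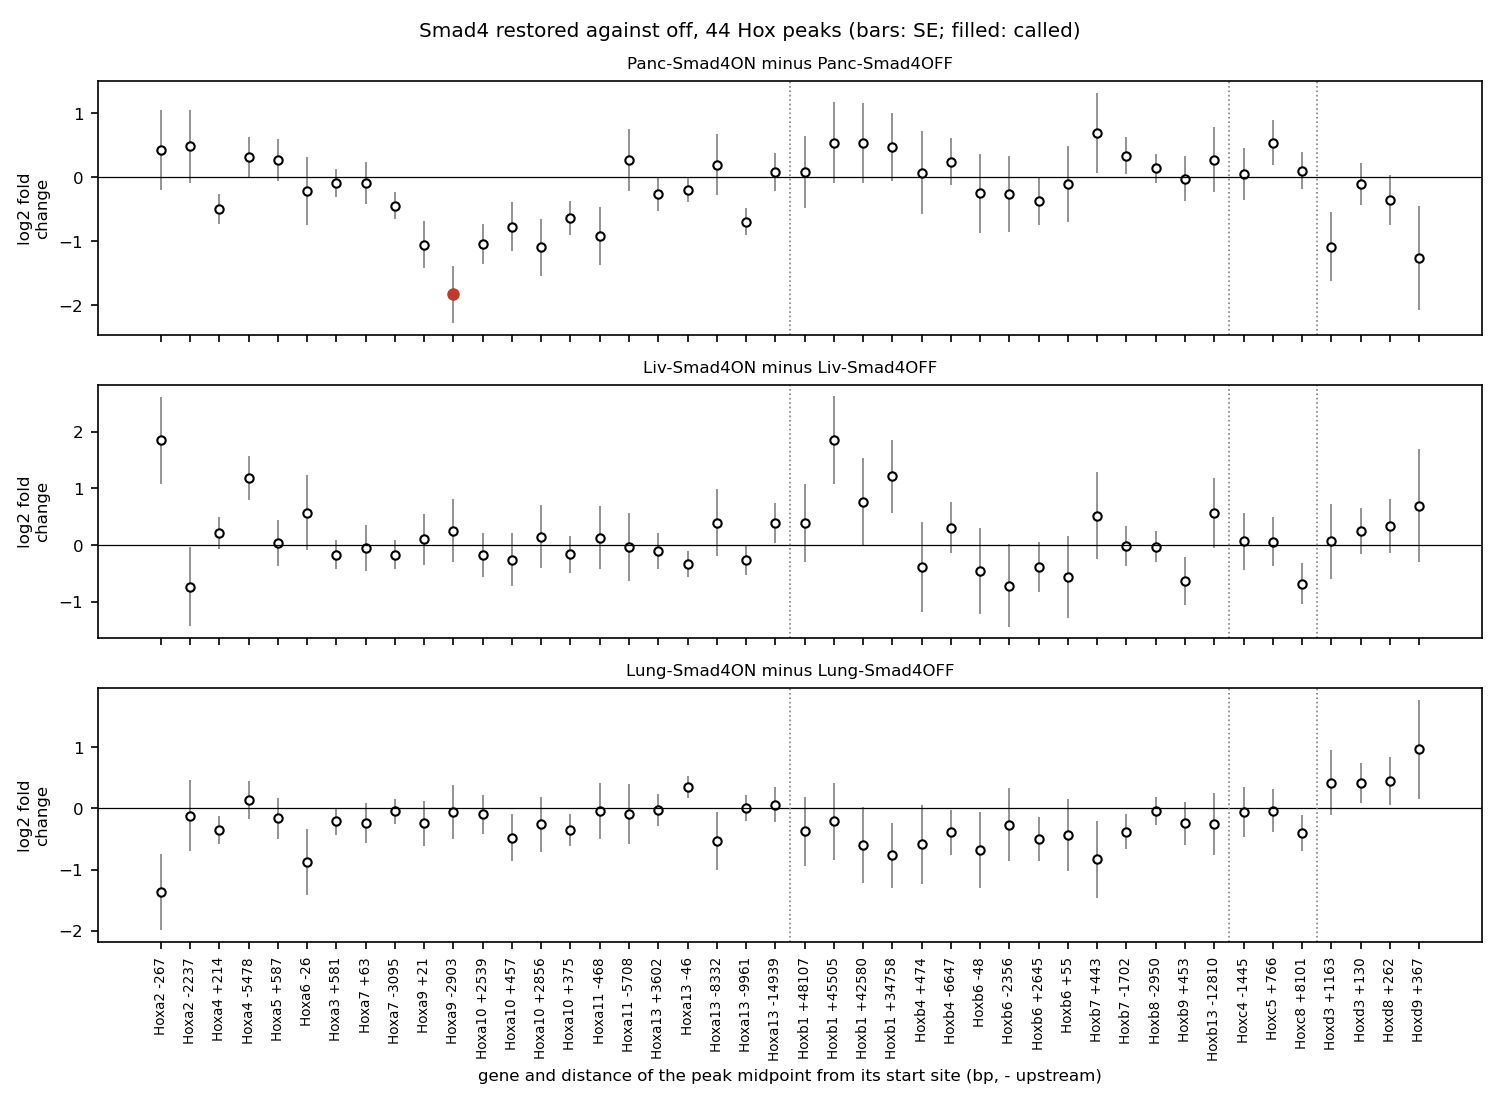
Log2 fold change after Smad4 restoration (bars SE) of the 44 Hox peaks in pancreas, liver and lungs, read along clusters A to D and parted by dotted lines. The 1 filled point, the peak 2903 bp upstream of Hoxa9 in the pancreas, was called, and 7 of the 8 peaks from Hoxa9 to Hoxa11 lie below 0 there.

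The genes that work with or next to the Hox genes were counted in the same way, over all their assigned peaks. The 9 TALE cofactors (of the PBX, MEIS and PKNOX families), which bind DNA with Hox proteins, had 82 peaks, of which 22 were higher and 16 lower in Liv-Smad4OFF than in Lung-Smad4OFF, 22 and 21 against Panc-Smad4OFF, and 2 higher and 12 lower between lungs and pancreas. Called peaks made up 46.3%, 52.4% and 17.1% of the 82 in these 3 comparisons. Of all peaks, 22.9% were higher and 26.8% lower, then 26.2% and 32.3%, then 6.59% and 10.7%. The list's medians were 0.36, 0.17 and −0.15 against 0.00, −0.05 and 0.03. For none of the 3 lists were these gaps tested. Pknox2 had 7 of 7 peaks lower in the liver than in the pancreas and 4 of 7 lower in the lungs. Its start-site peak had 430 ± 45.4 (SD, n = 3) in Panc-Smad4OFF, 175 ± 26.7 (n = 2) in Liv-Smad4OFF and 181 ± 81.8 (n = 3) in Lung-Smad4OFF. The liver minus pancreas difference there was −1.30 ± 0.34 (adjusted p = 0.00428). The Meis1 start-site peak was higher in the liver than in the pancreas by 0.64 ± 0.10 (adjusted p = 8.21e-05).

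The ParaHox and flanking homeobox genes had 34 peaks over 6 of 8 genes (Evx2 and Gsx2 had none). Of these, 12 were higher and 10 lower in Liv-Smad4OFF than in Lung-Smad4OFF, and 15 and 7 against Panc-Smad4OFF. Between lungs and pancreas 2 were higher and 0 lower. Called peaks made up 64.7%, 64.7% and 5.88% of the 34. Of all peaks, 22.9% were higher and 26.8% lower, then 26.2% and 32.3%, then 6.59% and 10.7%. Evx1, the even-skipped gene that flanks the Hoxa13 end of HoxA, had 7 of 9 peaks higher and 0 lower in Liv-Smad4OFF than in Lung-Smad4OFF, and 8 of 9 higher than in Panc-Smad4OFF. Its promoter peak (chr6:52313842-52314386) had 129 ± 7.31 (SD, n = 2) in Liv-Smad4OFF, 36.4 ± 21.5 (n = 3) in Lung-Smad4OFF and 32.4 ± 1.64 (n = 3) in Panc-Smad4OFF, a liver minus pancreas difference of 1.96 ± 0.41 (adjusted p = 0.000969). Cdx2, the intestinal regulator whose protein binds TTTATG, had a wide peak that overlaps its start site (chr5:147299039-147307898, midpoint 3802 bp away). The whole peak held 4936 ± 176 in Liv-Smad4OFF, 3795 ± 184 in Lung-Smad4OFF and 2498 ± 483 in Panc-Smad4OFF. It was higher than in the pancreas by 1.00 ± 0.17 in the liver (adjusted p = 0.000229) and by 0.62 ± 0.16 in the lungs (adjusted p = 0.0163). The liver minus lung difference of 0.38 was below the fold threshold. Of the 5 Cdx4 peaks 4 were lower in Liv-Smad4OFF than in Panc-Smad4OFF.

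The 21 Polycomb, Trithorax and insulator genes had 137 peaks. Of these, 40 were higher and 13 lower in Liv-Smad4OFF than in Lung-Smad4OFF, and 43 and 26 against Panc-Smad4OFF. Between lungs and pancreas 3 were higher and 16 lower. Called peaks made up 38.7%, 50.4% and 13.9% of the 137. Of all peaks, 22.9% were higher and 26.8% lower, then 26.2% and 32.3%, then 6.59% and 10.7%. Promoter peaks of all genes had a median liver minus pancreas value of 0.37. Among the list's genes the start-site peaks of the Polycomb genes Cbx7 (1.37 ± 0.16, adjusted p = 1.47e-05), Phc2 (1.52 ± 0.31, adjusted p = 0.000657) and Ezh1 (1.10 ± 0.15, adjusted p = 3.51e-05), and a promoter peak of the histone demethylase gene Kdm6b (2.39 ± 0.25, adjusted p = 7.59e-06), were higher in Liv-Smad4OFF than in Panc-Smad4OFF. The genes named from these lists were chosen after their values were seen. After Smad4 restoration in the pancreas 2 of the 82 cofactor peaks (2.44%) and 2 of the 34 ParaHox and flanking peaks (5.88%) were called lower. Of the 137 chromatin-gene peaks 4 (2.92%) were called lower, and 0 were called higher in each list. Over all peaks the shares were 3.06% lower and 0.364% higher.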

How the data were processed

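Chromatin accessibility was measured by ATAC-seq in 16 mice of 6 groups, from 60000 sorted mKate2+ cells. Per the labels and methods, the authors checked reads with FastQC 0.11.5, trimmed them with Trim Galore and cutadapt, and used Bowtie2 for alignment to mm10. They took peaks from MACS2 (p-value up to 0.001, blacklisted regions removed), merged peaks within 500 bp into 1 atlas, counted reads per peak with featureCounts and deposited DESeq2-normalised counts, a signal relative to each library's size factor. Treatment of duplicates, of the transposase offset and the table's own filter are not given in the sources used here. Wide merged peaks hold several sites, and a larger peak has less counting error. The values were whole multiples of 1 read (100% of values within 0.1 of a whole read), so reads could be recovered: 22495044 to 37510981 per sample in nuclear peaks. The 1 mitochondrial row (1.43% to 3.56% of reads) was left out.

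Peaks were assigned to the nearest protein-coding start site (GENCODE vM21 basic). Levels per kb are means over the 16 mice. The main test was limma 3.58.1 (R 4.3.3, trend and robust) on log2(normalised count + 1), with 6 group means over all 136630 peaks, Benjamini-Hochberg adjustment over all of them, and thresholds of 0.58 (absolute log2 fold change) and 0.1 (adjusted p), two-sided. A fold change on this scale understates that of low peaks. The script was tested on simulated reads with the same relative spread at all peaks and no shifts of single mice. That test covers the code and not the spread between these mice. Alternatives were a pseudocount of 10, TMM factors, a mean count of at least 20, GC correction, quantile normalisation, thresholds of 1 and 0.05, only the groups compared, a replicate block, each mouse left out in turn, and edgeR 4.0.16 and DESeq2 1.42.0 on recovered reads. Replicate libraries differed beyond sampling noise (chi-square per degree of freedom 3.72 to 22.0), so none was counted as a repeat of another. The labels did not pair off and on mice, and a pairing by replicate number was not tested. Deviations of same-numbered mice from their group means correlated at 0.49, 0.12 and 0.21 in the lungs. In the pancreas these values were −0.33, 0.03 and −0.33, and in the liver 0.08. Marker sums used peaks that hold a start site of the gene or lie within 1000 bp of one. Motifs were read as exact letters in the central 300 bases of each peak.

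The 38 genes, the other lists and the tests were chosen with earlier results of these data known. Named peaks are the start-site peak of each gene (or the nearest assigned one) and among called peaks whose samples do not overlap, the 3 higher and the 3 lower ones with the smallest p, in each organ comparison with Smad4 off and in the pancreas after restoration. Other peaks were named after their values were seen. An allele of the model and some genes of the lists are not reported here by name.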

Additional observations from a re-analysis of the deposited data

How the results depend on the processing

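Counts of called Hox peaks were recomputed under each alternative. No named peak changed direction, but 3 of the Hox medians given did (below). For liver against lungs with Smad4 off, 15 became 9 under the stricter thresholds and 7 to 16 with a mouse left out. For liver against pancreas with Smad4 off, 20 became 18 to 20 with a mouse left out, and for lungs against pancreas 6 became 2 to 7. With Smad4 on, liver against lungs went from 9 to 4 under the stricter thresholds and to 0 to 11 with a mouse left out, liver against pancreas from 22 to 13 and to 9 to 21, and lungs against pancreas from 9 to 15 by DESeq2 and to 7 to 15 with a mouse left out. For restoration in the pancreas the count of 1 became 3 with the filter on low counts, 3 with TMM factors, 4 after quantile normalisation, 4 with only the groups compared, 2 with the replicate block, 2 by edgeR, 4 by DESeq2 and 0 to 1 with a mouse left out. For restoration in the liver 0 became 1 by DESeq2 and 0 to 1 with a mouse left out, and averaged over organs 0 became 1 by edgeR, 1 by DESeq2 and 0 to 2 with a mouse left out. Most counts under the alternatives, here, above and below, have no share of all peaks beside them. A change in calls over all peaks thus cannot be told apart from one at Hox peaks. The cause of these shifts was not tested. Fits with a mouse left out have fewer samples, and where 1 liver mouse remains it is assumed to vary like the other groups.

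With the replicate block over all organs the 6 organ counts were 18, 22, 7, 8, 22 and 11, and with GC correction too 18, 26, 7, 12, 20 and 11. The block in the lungs alone, chosen after seeing the data, gave 0 calls for restoration in the lungs, for the average and for both interactions with the lungs, as without it, although over all peaks it called 1736 higher and 649 lower for lungs against pancreas, where limma without it called 0. Quantile normalisation moved the median of all peaks between lungs and pancreas with Smad4 on from 0.00 to 0.11 on the log2 scale, the only shift over 0.1. The medians of HoxB and HoxD between liver and lungs with Smad4 off, 0.21 and 0.08, became −0.06 and −0.32 after GC correction, and that of Hoxa2 to Hoxa7 for restoration in the pancreas went from −0.09 to 0.08. Of the recomputed values of named peaks, 448 kept their direction and side of the thresholds and 53 kept direction only. At few reads (1 to 4 in some libraries at Hoxa2, Hoxb13, Hoxb1, Hoxa13 and Hoxd9) small differences were not detectable.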

Other observations

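Single mice stood apart by stretches of a cluster within their group. In Lung-Smad4OFF the first mouse was the highest of 3 at 17 of 22 HoxA peaks, including 9 of 9 from Hoxa2 to Hoxa7 and 8 of 8 from Hoxa9 to Hoxa11, and the third was the highest at 13 of 15 HoxB peaks. In Lung-Smad4ON the second mouse was the highest at 16 of 22 HoxA peaks, with 238 normalised counts per kb over Hoxa9 to Hoxa11 against 83.9 and 99.3 in the other 2. The third Lung-Smad4ON mouse was the lowest at 13 of 15 HoxB peaks and the highest at 4 of 4 HoxD peaks, with 147 per kb over HoxD against 68.3 and 46.8. At the Hoxd9 peak it had 70.9 normalised counts, and no other of the 16 mice exceeded 31.3. In Panc-Smad4OFF the first mouse was the highest at 9 of 11 peaks from Hoxb4 to Hoxb13, with 148 per kb against 68.8 and 69.8. These mice were picked for their values, and no test was made. Counts of the same kind were not made over all peaks, and a shift of the whole library was not tested.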
